A study of Rattus norvegicus with 12 samples.

Results

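The potassium channels that end the atrial action potential were examined through 8 genes: Kcna5, Kcnj3, Kcnj5, Kcnk3, Kcnj2, Kcnq1, Kcnh2 and Kcne1. The genes, 8 of 14217 that the array names, were chosen for their role and with earlier results of these data known. Every probe set that the platform annotation assigned to one of them, and to no other gene, was kept. This gave 13 probe sets of 31099 on the array: 3 each for Kcnj3 and Kcnk3, 2 for Kcnj5 and 1 for each other gene. The tissue was the left or right atrial appendage of male Sprague-Dawley rats weighing 225 to 275 g, taken 28 days after surgery that made an aorto-caval shunt or, in controls, after a sham procedure. The shunt joins the aorta to the vena cava and imposes a volume load on the heart. The 4 groups were left atrium after shunt, left atrium after sham, right atrium after shunt and right atrium after sham, with 3 arrays in each. All were of 1 strain with no transgene named. Each array carried RNA of a pool of 2 tissues. The labels do not say which animals entered a pool or whether left and right pools shared animals, so p-values measure the spread between pools. The tissue entry of the sample labels also names ventricles.

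Repolarisation of the cardiac myocyte is carried by several potassium currents that open one after another and return the membrane to rest. In the human heart, atrial myocytes are known for a pair of currents that ventricular myocytes largely lack: the ultrarapid delayed rectifier, whose pore is the Kcna5 product, and the acetylcholine-activated inward rectifier, a tetramer of the Kcnj3 and Kcnj5 products that G protein subunits open when vagal nerves release acetylcholine. The Kcnk3 product is an acid-sensitive background channel, the Kcnj2 product carries the classical inward rectifier that holds the resting potential, and the Kcnq1 and Kcnh2 products form the slow and rapid delayed rectifiers. Kcne1 encodes a small membrane protein that joins the Kcnq1 pore and slows its opening.

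The promoters of 4 of the 8 genes were in the RefSeq promoter table (assembly GRCr8), which covers 250 bases before to 50 after the gene's start. Those of Kcna5, the gene that passed the test after shunt, and of Kcnj2, which differed between the atria through its single probe set, are shown. Kcna5 lies at chr4:161043760-161044059 on the minus strand and Kcnj2 at chr10:96559975-96560274 on the plus strand, and capitals mark matches to the motifs searched.
Kcna5 promoter: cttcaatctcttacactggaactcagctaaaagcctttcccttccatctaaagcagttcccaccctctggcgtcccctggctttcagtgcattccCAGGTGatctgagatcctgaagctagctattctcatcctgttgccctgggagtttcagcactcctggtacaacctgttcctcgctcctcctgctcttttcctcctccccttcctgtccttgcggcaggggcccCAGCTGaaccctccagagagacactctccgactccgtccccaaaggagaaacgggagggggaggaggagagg
Kcnj2 promoter: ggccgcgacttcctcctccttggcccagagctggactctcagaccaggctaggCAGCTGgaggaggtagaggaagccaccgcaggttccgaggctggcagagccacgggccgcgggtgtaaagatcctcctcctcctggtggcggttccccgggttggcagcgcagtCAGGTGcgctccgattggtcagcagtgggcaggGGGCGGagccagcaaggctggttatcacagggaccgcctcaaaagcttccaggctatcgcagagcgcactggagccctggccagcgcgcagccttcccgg
On both strands the motifs searched were the TATA box TATAAA, the GC box GGGCGG, the E-box CANNTG, the cAMP response element TGACGTCA, the T-box site AGGTGTGA, the glucocorticoid receptor site AGAACA and the GATA site AGATAA. Kcna5 held 2 E-boxes, at -155 and -22 from the start, and no GC box. Kcnj2 held 2 E-boxes, at -197 and -83, and a GC box at -50. An E-box was present in 72.1% and a GC box in 33.1% of the 33469 promoters in the table. Neither sequence held the other motifs, which were found in 14.2% (TATA box), 1.8% (cAMP response element), 1.1% (T-box), 20.7% (glucocorticoid receptor) and 11.6% (GATA) of all promoters, and a missing match says only that those letters are not in the window. The GC content was 56.3% for Kcna5 and 67.0% for Kcnj2, against a median of 51.7% over the table.

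Expression is given as the authors' log2 RMA value, on which a difference of 1 is a doubling, and values of different probe sets are not compared with each other because probes differ in brightness. Array medians lay between 5.44 and 5.47. The first principal component held 60.5% of the variance and separated left from right arrays. The atrial markers were bright on all arrays. Their mean log2 value over 9 genes was 11.72 to 11.82 in left shunt arrays and 11.77 to 11.81 in left sham arrays. On the right it was 11.67 to 11.73 in shunt arrays and 11.74 to 11.77 in sham arrays. None of the 9 passed the test after shunt in either atrium in limma. At an unadjusted p under 0.05 there were 2 of the 9 on the left and 3 on the right. Of all 31042 probe sets, 4207 on the left and 6127 on the right had such a p. Ventricular markers moved with the groups: their mean over 7 genes was 6.78 to 7.12 in left shunt and 6.29 to 6.55 in left sham arrays, and 8.02 to 8.89 in right shunt and 7.53 to 7.74 in right sham arrays. Of these 7 genes, 5 were higher after shunt in the right atrium and 1 in the left. The ventricular light chain Myl2 was 5.71 to 6.42 in left shunt and 5.02 to 5.45 in left sham arrays, and 11.45 to 12.83 in right shunt and 10.9 to 11 in right sham arrays. Macrophage markers averaged 7.48 to 7.6 in right shunt and 6.96 to 7.07 in right sham arrays, with 3 of 7 higher after shunt. The signal of the β-actin control probes at the 3′ end minus that at the 5′ end, which grows as RNA is shortened, was 1.14 to 1.39 on left and 1.58 to 2.03 on right arrays, and 1.91 to 2.03 in right shunt against 1.58 to 1.82 in right sham arrays. The part of these markers and of RNA shortening in the results was not tested. In bulk tissue, fewer cells of a type and less RNA per cell cannot be told apart.

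**Figure D1:**
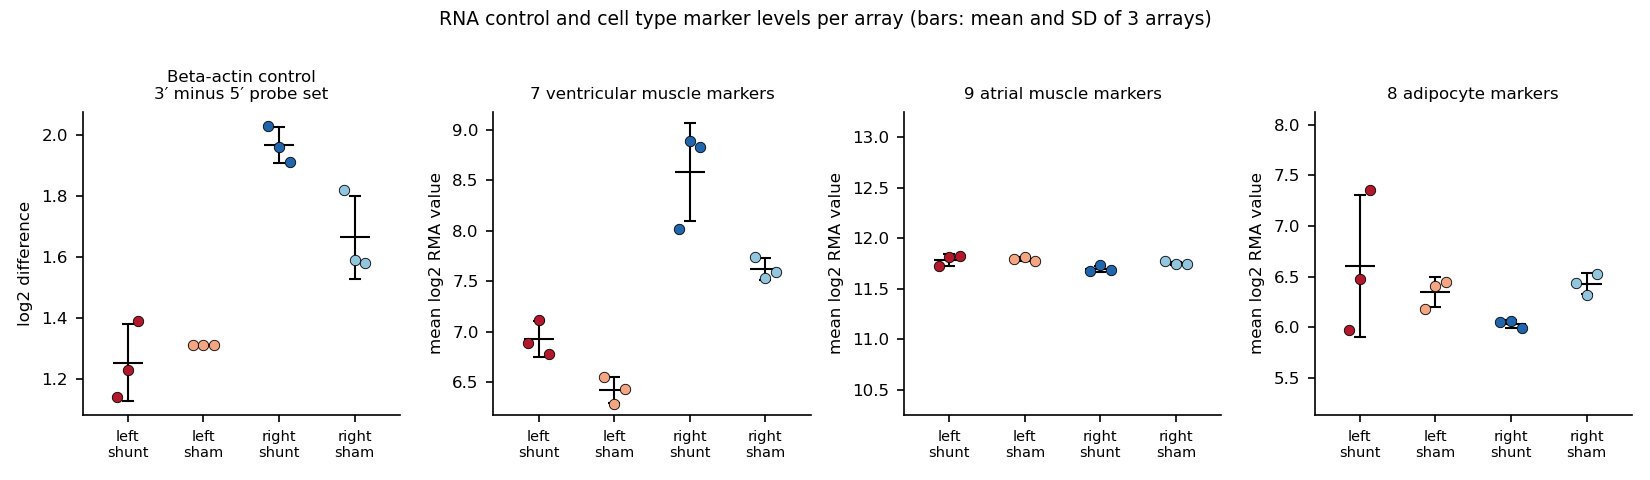
Points are arrays of the left shunt, left sham, right shunt and right sham groups and give the β-actin 3′ minus 5′ difference (log2) and the mean log2 RMA value of marker lists, with bars at the mean and SD. Right shunt arrays hold the highest ventricular marker means, 8.02 to 8.89, against 7.53 to 7.74 in right sham arrays.

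The ultrarapid rectifier gene Kcna5 was lower after shunt in the right atrium, and it was the only one of the 13 probe sets to pass the test. Its log2 values were 5.18, 5.33 and 5.56 in right shunt arrays, against 5.95, 6.4 and 6.47 in right sham arrays. Every right shunt array lay below every right sham array. Kcna5 averaged 5.36 ± 0.19 in right shunt and 6.27 ± 0.28 in right sham arrays (SD, n = 3 each), a difference of -0.92 ± 0.14 (SE, 95% interval -1.23 to -0.6), or 1.89-fold lower, with an adjusted p of 0.00839 in limma. Adjusted p-values are Benjamini-Hochberg values over all 31042 probe sets that are not controls, and a result passes below 0.05. Among these, 332 probe sets, 1.07%, fell in the right atrium after shunt. It passed with each of the 12 arrays left out in turn. Right shunt replicate 1, where Kcna5 was lowest, had a mean of the 7 ventricular markers of 8.02. It was 8.83 and 8.89 on the other right shunt arrays and 7.53 to 7.74 on right sham arrays. The β-actin 3′ minus 5′ difference was 2.03, 1.96 and 1.91 in right shunt replicates 1 to 3. In right sham replicates 1 to 3 it was 1.82, 1.59 and 1.58, so on right arrays it was higher wherever Kcna5 was lower. On left arrays it was 1.14 to 1.39 after shunt and 1.31 after sham. The part of the markers and of RNA shortening in the Kcna5 values was not tested.

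In the left atrium Kcna5 was 5.64, 5.74 and 5.51 in shunt arrays, against 6.14, 6.51 and 6.23 in sham arrays. The groups did not overlap. The means were 5.63 ± 0.11 in left shunt and 6.3 ± 0.19 in left sham arrays (SD, n = 3 each), and the difference of -0.66 ± 0.14 (SE, 95% interval -0.98 to -0.35), 1.59-fold lower, had an unadjusted p of 0.000543 and an adjusted p of 0.0609 in limma, so it missed the threshold. It passed in 6 of 21 alternative analyses, among them without right sham replicate 1 (adjusted p = 0.0352). The shunt effect in the left atrium minus that in the right was 0.25 ± 0.2 (adjusted p = 0.592), so no difference in effect between the atria was shown. The 2 shunt groups overlapped in level, as did the 2 sham groups, and only the step between shunt and sham was free of overlap.

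**Figure D2:**
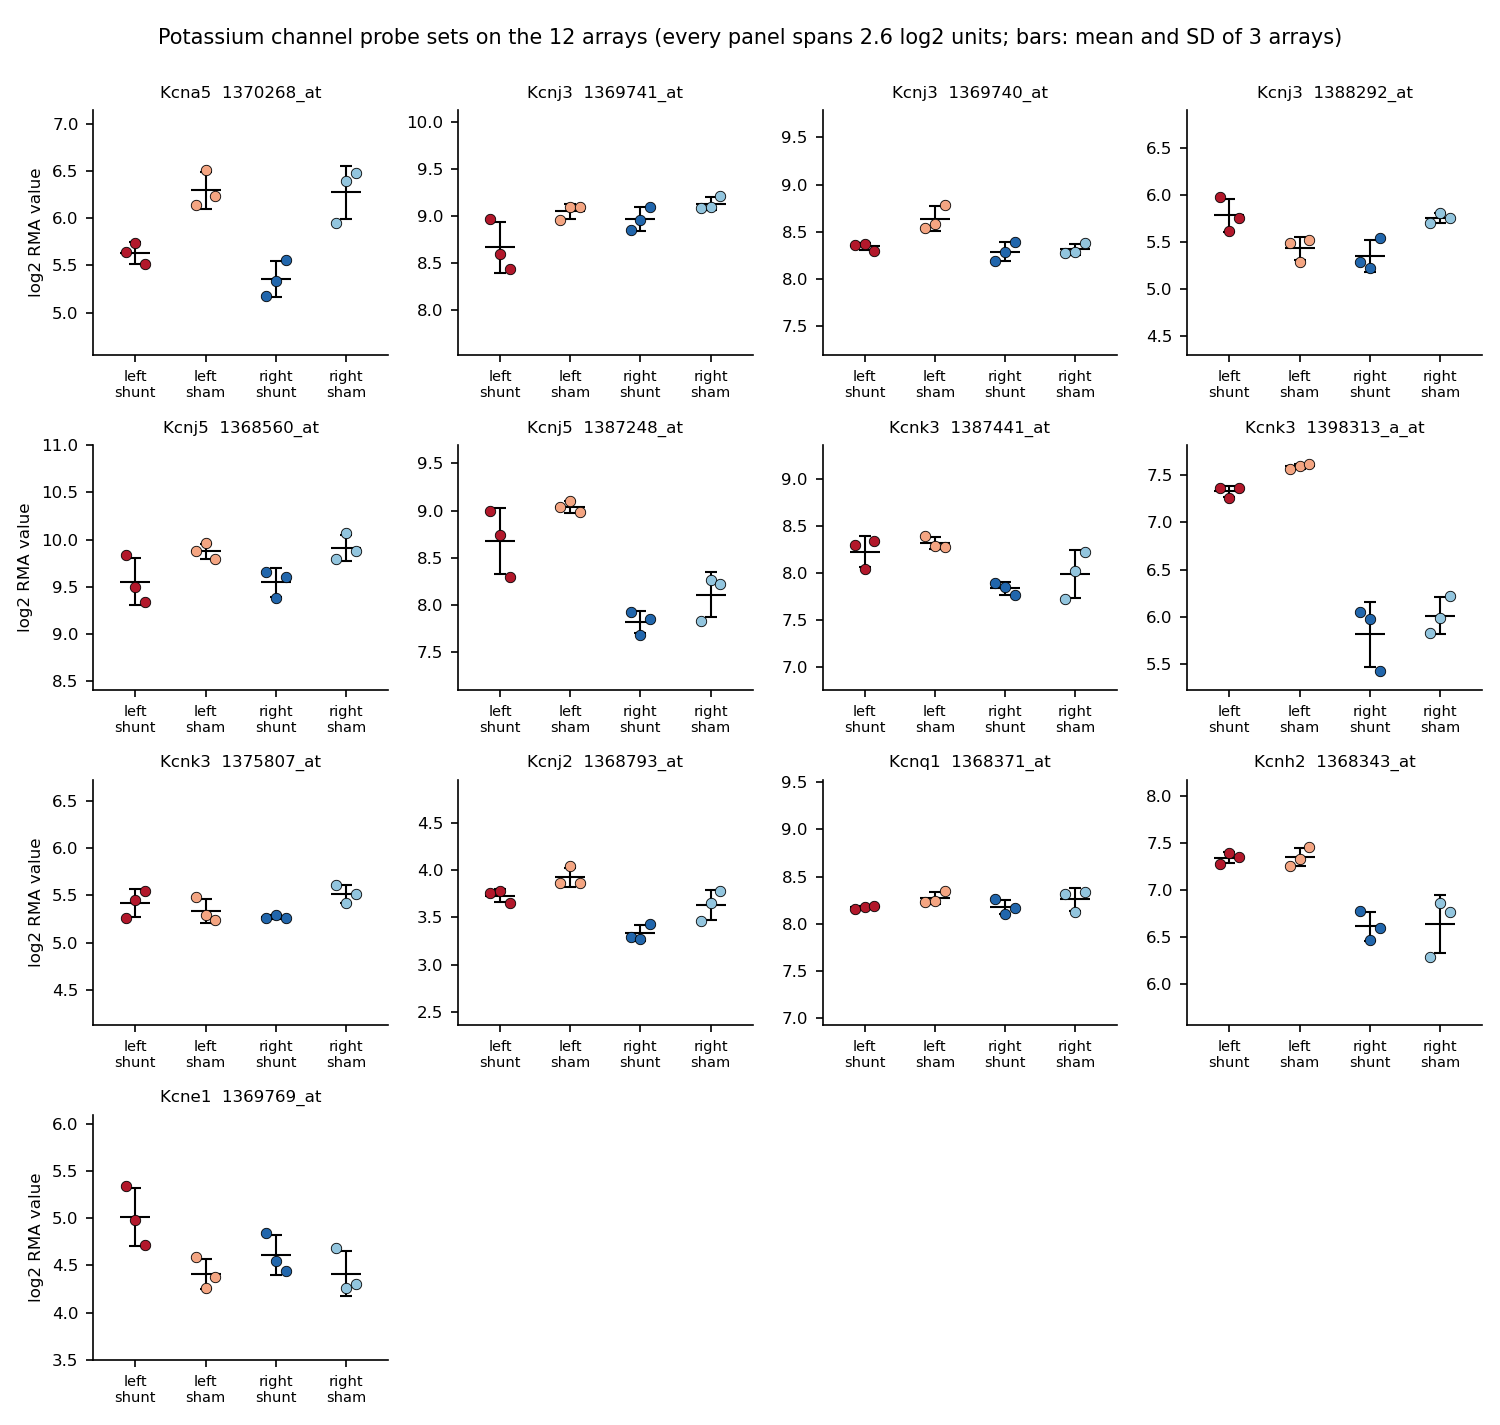
Log2 RMA value of each of the 13 probe sets in each of the 12 arrays, by group, with left shunt, left sham, right shunt and right sham from left to right, bars at the mean and SD and the same span in each panel. Kcna5 lay between 5.18 and 5.74 on the 6 shunt arrays, against 5.95 to 6.51 on the 6 sham arrays.

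The genes of the acetylcholine-activated channel did not pass the test after shunt in either atrium, and the 3 Kcnj3 probe sets gave unlike differences. The brightest, 1369741_at, was 8.97, 8.59 and 8.44 in left shunt arrays, against 8.96, 9.09 and 9.1 in left sham arrays, and 8.85, 8.95 and 9.1 in right shunt arrays, against 9.09, 9.1 and 9.21 in right sham arrays. The left groups overlapped through the first shunt array alone, and the right groups overlapped as well. The differences were -0.38 ± 0.12 on the left (adjusted p = 0.171) and -0.16 ± 0.12 on the right (adjusted p = 0.487). Without left shunt replicate 1 the left difference was -0.53 and passed (adjusted p = 0.0359). Probe set 1369740_at was 8.36, 8.37 and 8.3 in left shunt arrays, against 8.55, 8.59 and 8.79 in left sham arrays, without overlap (-0.29 ± 0.08, adjusted p = 0.128). On the right it was 8.19, 8.28 and 8.4 in shunt arrays, against 8.28, 8.29 and 8.38 in sham arrays, and the ranges overlapped.

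The third Kcnj3 probe set, 1388292_at, lay on opposite sides of sham in the 2 atria. It was 5.97, 5.62 and 5.75 in left shunt arrays, against 5.49, 5.29 and 5.52 in left sham arrays. On the right it was 5.29, 5.23 and 5.54 in shunt arrays, against 5.7, 5.8 and 5.75 in sham arrays. Neither pair of groups overlapped, with shunt above sham on the left and below it on the right. The left difference was 0.35 ± 0.11 (adjusted p = 0.168) and the right one -0.4 ± 0.11 (adjusted p = 0.0643), which passed without left shunt replicate 1 (adjusted p = 0.0473). The difference between the 2 effects was 0.75 ± 0.15 (SE, 95% interval 0.42 to 1.08), with an unadjusted p of 0.000293 and an adjusted p of 0.14. In limma 0 of the 13 probe sets passed this test of the difference, and 8 probe sets of the whole array, 0.0258%, passed. At an unadjusted p under 0.05 there were 3 of the 13, against 4467 of all 31042 probe sets. Kcnj3's probe sets differed in shunt effect by 0.73 in the left atrium, more than those of 99.2% of the 4525 genes with several probe sets, whose median spread was 0.15. This spread is the highest minus the lowest difference of a gene. It can grow with the number of probe sets, which was not matched. Across the 12 arrays the 3 probe sets correlated pairwise at r = 0.3, -0.05 and -0.16, with Spearman's rho of 0.46, 0.23 and -0.06, over arrays that share a normalization.

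Kcnj5, the partner subunit, lay lower after shunt in both atria without passing. Its brighter probe set, 1368560_at, was 9.83, 9.49 and 9.34 in left shunt arrays, against 9.87, 9.96 and 9.8 in left sham arrays. On the right it was 9.66, 9.38 and 9.6 in shunt arrays, against 9.8, 10.07 and 9.88 in sham arrays. The left groups overlapped through the first shunt array, and the right groups did not overlap. The differences were -0.32 ± 0.12 on the left (adjusted p = 0.27) and -0.37 ± 0.12 on the right (adjusted p = 0.125). The other probe set, 1387248_at, gave -0.36 ± 0.16 on the left (adjusted p = 0.33) and -0.29 ± 0.16 on the right (adjusted p = 0.335).

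Kcnk3, the acid-sensitive background channel, did not pass after shunt through any of its 3 probe sets. The brightest, 1387441_at, was 8.3, 8.04 and 8.33 in left shunt arrays, against 8.39, 8.28 and 8.28 in left sham arrays, and 7.89, 7.85 and 7.76 in right shunt arrays, against 7.72, 8.02 and 8.22 in right sham arrays. Both pairs overlapped. Its differences of -0.09 on the left and -0.15 on the right had adjusted p-values of 0.783 and 0.521. Probe set 1398313_a_at was 7.37, 7.25 and 7.36 in left shunt arrays, against 7.57, 7.59 and 7.62 in left sham arrays, without overlap (-0.27, adjusted p = 0.444). The third, 1375807_at, was 5.26, 5.29 and 5.26 in right shunt arrays, against 5.61, 5.42 and 5.51 in right sham arrays, without overlap (-0.25, adjusted p = 0.16).

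Kcnj2, the classical inward rectifier, lay lower in both atria after shunt and did not pass. Its probe set was dim, brighter on average than 18.8% of all probe sets, and no detection call is used here. It was 3.76, 3.78 and 3.65 in left shunt arrays, against 3.86, 4.04 and 3.86 in left sham arrays, and 3.29, 3.27 and 3.43 in right shunt arrays, against 3.46, 3.65 and 3.78 in right sham arrays. Neither pair overlapped. The differences were -0.19 ± 0.09 on the left (adjusted p = 0.383) and -0.3 ± 0.09 on the right (adjusted p = 0.0985).

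Among the slow and rapid delayed rectifiers the pores gave differences of -0.1 or nearer to 0, and the auxiliary subunit lay higher after shunt in the left atrium, without passing. Kcnq1 was 8.16, 8.18 and 8.19 in left shunt arrays, against 8.24, 8.24 and 8.35 in left sham arrays, and 8.26, 8.11 and 8.17 in right shunt arrays, against 8.32, 8.12 and 8.34 in right sham arrays. The left groups did not overlap, though the gap was small, and the right groups did. Its differences were -0.1 on the left (95% interval -0.26 to 0.07) and -0.08 on the right (-0.25 to 0.08). Kcnh2, the rapid rectifier pore, was 7.28, 7.39 and 7.34 in left shunt arrays, against 7.26, 7.33 and 7.45 in left sham arrays, and 6.78, 6.47 and 6.6 in right shunt arrays, against 6.28, 6.86 and 6.77 in right sham arrays. Both pairs overlapped, with differences of -0.01 (95% interval -0.29 to 0.28) on the left and -0.02 (-0.3 to 0.27) on the right. These intervals do not show that Kcnq1 and Kcnh2 were equal after shunt and sham, and bound the size of a difference.

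Kcne1, whose product slows the Kcnq1 channel, was 5.34, 4.98 and 4.72 in left shunt arrays, against 4.59, 4.26 and 4.38 in left sham arrays, and 4.85, 4.55 and 4.44 in right shunt arrays, against 4.68, 4.26 and 4.3 in right sham arrays. The left groups did not overlap and the right groups did. The difference was 0.6 ± 0.16 on the left (SE, 95% interval 0.25 to 0.96, adjusted p = 0.119) and 0.2 ± 0.16 on the right (adjusted p = 0.556). Left shunt replicate 3, the lowest of its group for Kcne1, also had the highest adipocyte marker mean, 7.36, against 5.97 and 6.48 on the other left shunt arrays and 6.18 to 6.45 in left sham arrays. Of the left arrays it also had the highest neuronal marker mean, 4.98, and the lowest macrophage and fibroblast marker means, 6.53 and 10.98. The part of these in the Kcne1 values was not tested. Without that array the left Kcne1 difference was 0.75 and passed the test (adjusted p = 0.0336).

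Read together over the 13 probe sets, 12 lay below 0 in the right atrium after shunt, against 50.7% of all probe sets tested, and their median difference was -0.2, against 0 over all. In the left atrium 10 lay below 0, against 50.4% of all, with a median of -0.19 against 0. In the right atrium 5 of the 13 had every shunt array below every sham array, against 13.5% of all probe sets. In the left atrium 5 did, against 9.21%. The reverse, every shunt array above every sham array, held for 2 of the 13 on the left and 0 on the right. The share of all probe sets that did so was not counted, so these counts have no background to be read against. None passed in the left atrium in limma, where 0.751% of all probe sets passed in either direction. At an unadjusted p under 0.05 there were 7 of the 13, against 4207 of all 31042 probe sets. The left and right comparisons have separate sham arrays. The 13 probe sets measure 8 genes, so they are not 13 separate observations. The genes were chosen with earlier results of these data known, so these shares describe the set and are no test.

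**Figure D3:**
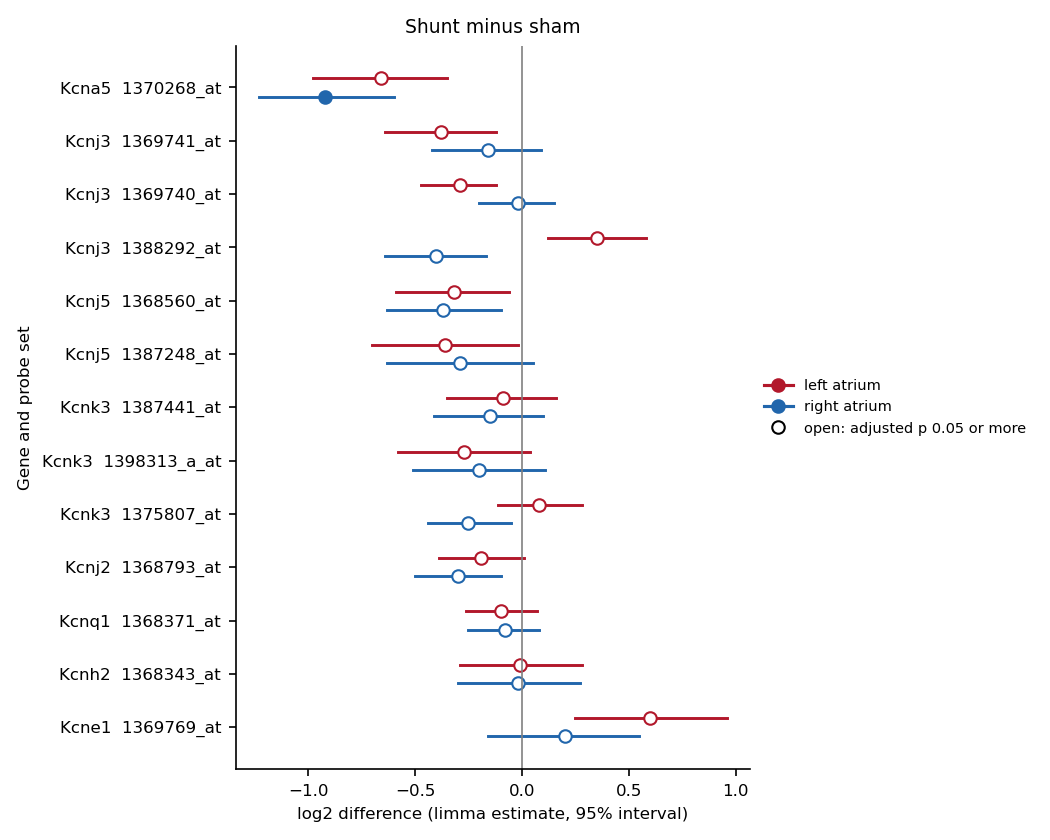
Shunt minus sham log2 difference of each probe set in the left and right atrium, with 95% intervals from limma and filled points where the adjusted p was below 0.05. Only Kcna5 in the right atrium, at -0.92, is filled.

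The left and right atria differed for several of these genes whatever the operation. Of the 13 probe sets, 6 were higher and 0 lower in left than right shunt arrays, against 20.2% higher and 17.4% lower of all probe sets. Between sham groups 6 were higher and 1 lower on the left, against 20.1% higher and 16.1% lower of all. As the genes were chosen with earlier results known, these shares describe the set and are no test. The members' median left minus right difference was 0.39 in shunt and 0.02 in sham arrays, while that over all probe sets was 0.05 in shunt and 0.02 in sham arrays. The left and right arrays also differed throughout in the actin control and in the mean of the 7 ventricular markers. Of these 7 genes, 4 were lower and 2 higher on the left after shunt, and 4 lower and 1 higher after sham. The part of the actin control and of these markers in the chamber differences was not tested.

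Kcnk3 gave the largest chamber difference of the 13 probe sets, through 1398313_a_at. It was 7.37, 7.25 and 7.36 in left shunt arrays, against 6.05, 5.97 and 5.42 in right shunt arrays, and 7.57, 7.59 and 7.62 in left sham arrays, against 5.83, 5.99 and 6.22 in right sham arrays. Every left array lay above every right array. The left minus right difference was 1.51 ± 0.14 after shunt (adjusted p = 1.5e-05), 2.85-fold, and 1.58 ± 0.14 after sham (adjusted p = 5.94e-06), 3-fold. The other Kcnk3 probe sets gave less: 1387441_at differed by 0.39 after shunt (adjusted p = 0.0205) and 0.33 after sham (adjusted p = 0.0446), and 1375807_at by 0.15 and -0.18 with neither past the test. The call of 1387441_at after sham was lost in 13 of 21 alternatives, 9 of them with 1 array left out, and after shunt it was lost without left shunt replicate 1, left shunt replicate 3 or right shunt replicate 3. The spread of 1.76 between the sham differences of the Kcnk3 probe sets exceeded that of 98.8% of genes with several probe sets, whose median was 0.39. Here too the number of probe sets was not matched. Across the 12 arrays 1387441_at and 1398313_a_at correlated at r = 0.87 (Spearman's rho 0.86).

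Kcnh2 was also higher on the left: its values above lay at 7.26 to 7.45 on the 6 left arrays, against 6.28 to 6.86 on the 6 right arrays. The difference was 0.72 ± 0.13 after shunt (adjusted p = 0.00112), 1.65-fold, and 0.71 ± 0.13 after sham (adjusted p = 0.00111), 1.64-fold. Kcnj2 was higher on the left by 0.4 ± 0.09 after shunt (adjusted p = 0.00514) and 0.29 ± 0.09 after sham (adjusted p = 0.0263), and the sham call was lost without left sham replicate 2, right sham replicate 1 or right sham replicate 2. Kcna5, Kcnq1 and Kcne1 did not pass between the atria in either state: the shunt differences were 0.27 (adjusted p = 0.154), 0 and 0.4 (adjusted p = 0.0704), and the sham differences were 0.02, 0.01 and 0. The Kcne1 difference after shunt passed without left shunt replicate 3 (0.55, adjusted p = 0.0175) and without right shunt replicate 1 (0.52, adjusted p = 0.0421).

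The probe sets of the acetylcholine-activated channel disagreed about the chambers. For Kcnj5, 1387248_at was 8.99, 8.74 and 8.3 in left shunt arrays, against 7.92, 7.69 and 7.85 in right shunt arrays, and 9.03, 9.11 and 8.98 in left sham arrays, against 7.83, 8.27 and 8.22 in right sham arrays. All left arrays lay above all right arrays, by 0.86 ± 0.16 after shunt (adjusted p = 0.00115) and 0.93 ± 0.16 after sham (adjusted p = 0.000557). Probe set 1368560_at of the same gene showed 0.01 after shunt (adjusted p = 0.962) and -0.04 after sham (adjusted p = 0.851). The mean of both probe sets passed, at 0.43 after shunt (adjusted p = 0.0189) and 0.45 after sham (adjusted p = 0.0165). For Kcnj3 after shunt, 1388292_at was higher on the left by 0.43 ± 0.11 (adjusted p = 0.00762), while 1369740_at gave 0.06 and 1369741_at -0.3, neither past the test. Without left shunt replicate 1 the 1369741_at difference was -0.45 and passed (adjusted p = 0.00423). After sham 1388292_at was lower on the left, at -0.32 (adjusted p = 0.0335), 1369740_at was higher by 0.33 ± 0.08 (adjusted p = 0.00787), and 1369741_at gave -0.08 (adjusted p = 0.624). The sham call of 1388292_at was lost without left sham replicate 1 or 2 and without any 1 of the right sham arrays. Probe sets of 1 gene passing in opposite directions, as Kcnj3 did after sham, occurred in 358 genes, 7.91% of those with several probe sets.

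**Figure D4:**
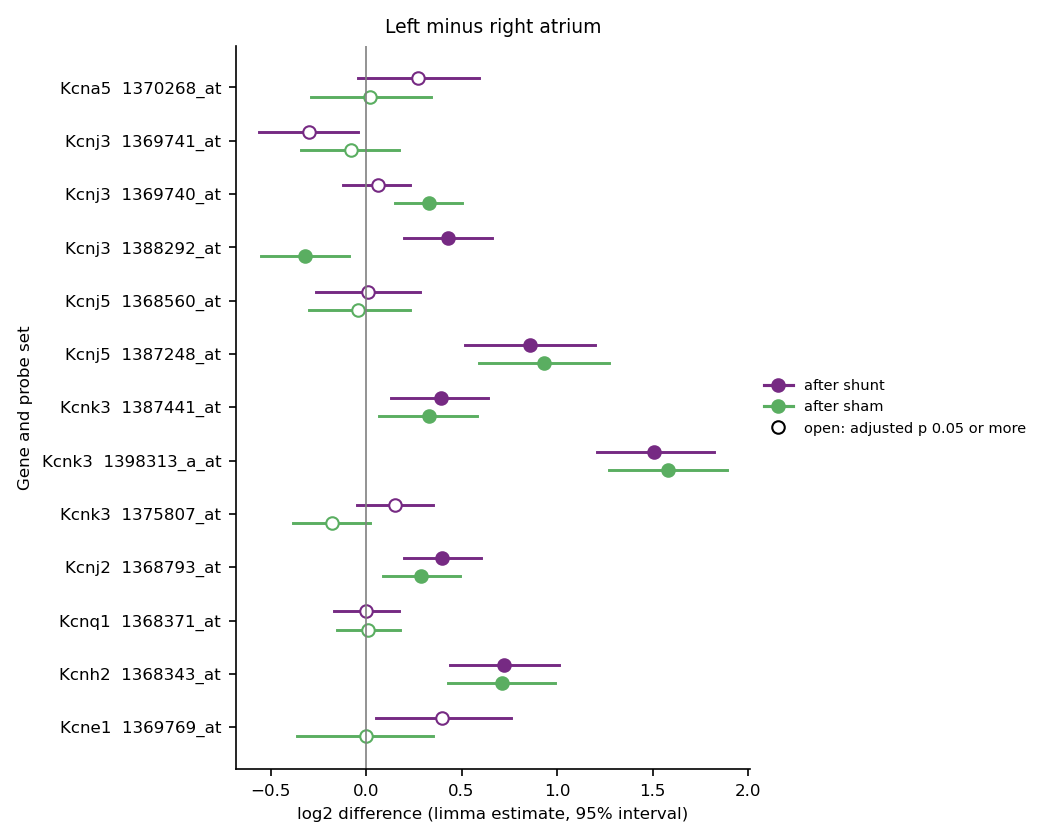
Left minus right log2 difference of each probe set after shunt and after sham, with 95% intervals from limma and filled points where the adjusted p was below 0.05. Kcnk3 1398313_a_at stands highest at 1.51 after shunt and 1.58 after sham, and Kcnj3 1388292_at changes sign, 0.43 after shunt against -0.32 after sham.

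Ordered by group mean, Kcna5 had both shunt groups below both sham groups, and only the step between left shunt and right sham, 0.64, was free of overlap. For Kcnh2 and Kcnj5 1387248_at both left groups stood above both right groups, and the step between left shunt and right sham, 0.7 and 0.57, was the only one free of overlap. Kcnk3 1398313_a_at ran from left sham through left shunt and right sham to right shunt, with steps of 0.27, 1.32 and 0.2, of which the last overlapped. Kcnj2 had the same order with steps of 0.19, 0.1 and 0.3, of which the middle one overlapped. Kcnq1, Kcne1, Kcnj3 1369741_at, Kcnj5 1368560_at, Kcnk3 1387441_at and Kcnk3 1375807_at had overlapping neighbours at each step. For Kcnj3 1369740_at the step between left shunt and left sham, 0.29, was the only one free of overlap, and for Kcnj3 1388292_at it was the step of 0.32 between right sham and left sham, with left shunt at the top of that order and right shunt at its end.

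Other genes of atrial repolarisation were read from 3 lists holding 43 measured genes: 17 further channel pores, 12 auxiliary and scaffold proteins and 14 receptors and G protein components of the acetylcholine and adenosine arm. After shunt 1 rose and 1 fell in the right atrium, 4.65% of the 43, against 2.97% of all probe sets called in either direction. In the left atrium 1 rose and 2 fell, 6.98%, against 0.751% of all probe sets. Each of the 43 genes was read through its brightest probe set, while the background counts every probe set, so the shares differ in unit. In the receptor and G protein list none passed in either atrium in limma. At an unadjusted p under 0.05 there were 3 of 14 on the left and 4 on the right. Of all 31042 probe sets, 4207 on the left and 6127 on the right had such a p. The median difference of the 43 genes was -0.02 on the right and 0.03 on the left, against 0 over all probe sets in both.

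In the left atrium Kcnj12, a second inward rectifier pore, was 5.25, 5.21 and 4.89 in shunt arrays, against 5.95, 6.24 and 5.99 in sham arrays. The groups stood apart, and the difference of -0.95 ± 0.12 (adjusted p = 0.00377) was 1.93-fold lower. It missed the threshold in the fit of left arrays alone (adjusted p = 0.0737). On the right Kcnj12 was 4.81, 5 and 5 in shunt arrays, against 5.34, 5.3 and 5.6 in sham arrays, and just missed the threshold (-0.47, adjusted p = 0.0535). Kcnd2, a pore of the transient outward current, fell on the left by 0.7 ± 0.11 on the log2 scale (adjusted p = 0.0163), and Kcnip2, whose product is an accessory subunit of that current, rose by 1.36 ± 0.22 (adjusted p = 0.0153). Both calls were lost without left sham replicate 3 or left shunt replicate 2, and that of Kcnd2 also without left sham replicate 2. In the fit of left arrays alone neither passed (adjusted p = 0.0783 for Kcnd2 and 0.222 for Kcnip2). The other Kcnd2 probe set, 1387476_at, gave -0.56 (adjusted p = 0.116). A further Kcnip2 probe set, 1370773_a_at, rose by 1.27 (adjusted p = 0.0199) and 1368639_at gave 0.07 (adjusted p = 0.8).

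In the right atrium Kcnk2, a stretch-sensitive background channel, fell by 0.4 ± 0.09 on the log2 scale (adjusted p = 0.0418), and Kcnj8, the pore of an ATP-sensitive channel, rose by 0.44 ± 0.11 (adjusted p = 0.0452). Both lay near the threshold: the call was lost in 10 of 22 alternatives for Kcnk2 and in 12 of 22 for Kcnj8, including without any 1 of the right atrial arrays. The other Kcnk2 probe set, 1382723_at, gave -0.22 (adjusted p = 0.306). On right arrays after shunt Kcnd2 and Kcnip2 gave -0.01 and 0.42, neither past the test. The difference between the left and right effects missed the threshold for Kcnj12, Kcnd2 and Kcnip2 (adjusted p = 0.253, 0.145 and 0.228).

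**Figure D5:**
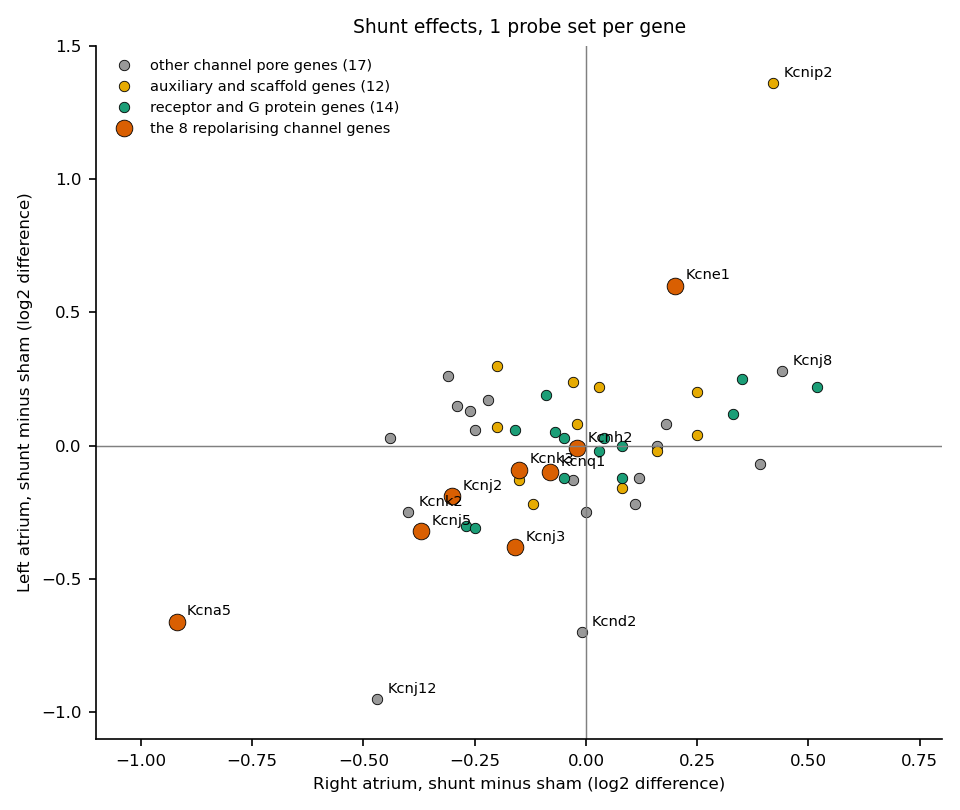
Shunt minus sham log2 difference in the left atrium (vertical axis) against the right atrium (horizontal axis), 1 probe set per gene, for the 8 channel genes and the 43 others. Kcna5 lies at -0.66 on the left and -0.92 on the right, and Kcnj12 at -0.95 and -0.47.

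Between the chambers 10 of these 43 genes were higher and 11 lower on the left after shunt, 48.8%, against 37.7% of all probe sets called in either direction. After sham 9 were higher and 11 lower, 46.5%, against 36.1% of all. The 43 are genes and the background counts probe sets. In a fit with 1 probe set per gene, 6097 of 14217 genes passed after shunt and 5621 after sham. These shares describe the list and were not tested. The genes named next are only some of those past the threshold. Kcnip2 was lower on the left, at -1.37 after shunt and -2.31 after sham (adjusted p = 0.000509 and 9.33e-06) through 1373987_at. Its probe set 1370773_a_at gave -0.21 after shunt (adjusted p = 0.475) and -0.96 after sham (adjusted p = 0.00371), and 1368639_at gave 0.08 and -0.05, neither past the test. Kcna2, a delayed rectifier pore, was lower at -1.26 and -1.73 (adjusted p = 4.27e-05 and 3e-06) through 1379092_at, while 1370612_at gave 0.03 and 0.04. Of the transient outward pores, Kcnd3 was lower on the left, at -0.73 after shunt and -0.63 after sham (adjusted p = 5.9e-05 and 0.00012). Its probe set 1378111_at was lower too, at -0.46 and -0.59 (adjusted p = 0.047 and 0.0153). A further Kcnd3 probe set, 1369145_a_at, was higher after sham (0.38, adjusted p = 0.0134) and gave 0.25 after shunt (adjusted p = 0.0762). Among signalling genes Gnb2, a G protein beta subunit, was higher on the left by 1.03 and 1.1 (adjusted p = 2.93e-06 and 1e-06) through 1398863_at and by 0.37 and 0.16 (adjusted p = 0.00122 and 0.0871) through 1370867_at, each after shunt and after sham. Gnao1, a G protein alpha subunit, was at -0.95 and -1.23 (adjusted p = 5.03e-05 and 5.16e-06), and Chrm2, the muscarinic receptor that opens the Kcnj3 and Kcnj5 channel, was higher by 0.42 and 0.45 (adjusted p = 0.00823 and 0.00512), each after shunt and after sham.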

How the data were processed

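Total RNA of 12 pools was hybridised to 12 Affymetrix arrays, 3 per group. The deposited values are log2 expression from the authors' RMA run, as the submitters' processing notes name it. This method corrects background, normalizes quantiles and summarises probes, so a shift common to whole arrays is removed. No detection filter was used, and 57 control probe sets were dropped.

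limma 3.58.1 in R 4.3.3 estimated the mean of each group from the 12 arrays together (lmFit, contrasts, eBayes, two-sided), with Benjamini-Hochberg adjustment over 31042 probe sets and a threshold of 0.05. The fit was tested on simulated data in which 200 probe sets were changed in the right shunt arrays. Of changes of 0.5, 1 and 2 on the log2 scale, it called 44.8%, 97% and 100%. Of its calls 5.85% were false. Probe sets were named where the platform annotation gave 1 gene (20826 probe sets; 436 had several and 9780 none).

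All members and their probe sets are named. From 3 lists of other genes, a rule took up to 4 past the threshold per list and comparison, smallest adjusted p first, 1 probe set per gene (highest mean). For shunt against sham all of these were named. Between the chambers only some were, with Akap9, Rgs10 and Gng2 among those left out. Chrm2 after shunt was given although the rule did not take it. Other probe sets of list genes were named after their values were seen. The members and lists were chosen with earlier results of these data known. Alternatives were dim probe sets left out, renormalization, other variance models, array weights, a replicate block, values per gene and each array left out.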

Additional observations from a re-analysis of the deposited data

Results flagged for a closer look

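Kcnj3 probe set 1388292_at drew attention because the shunt and sham arrays stood apart in opposite directions in the 2 atria: every left shunt array lay above every left sham array, and every right shunt array lay below every right sham array. The shunt effect in the left atrium minus that in the right was 0.75, and limma's test of this difference gave an adjusted p of 0.14. The other Kcnj3 probe sets did not show this pattern, and its cause was not tested.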

How the results depend on the processing

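Kcna5 in the right atrium kept its direction and its call in all 21 alternatives that left its group more than 1 array, and in the left atrium it passed in 6 of 21. An alternative chosen after the data were seen took right shunt replicate 1 as the only array of its group, assumed to vary like the others. It gave 0 members past the test in the right atrium and 2 between the atria after shunt, and with 1 array it says nothing about stability. Same-numbered arrays of the left and right atrium of 1 operation correlated at 0.08 to 0.15 after group means were removed, and 6 of 6 matched their own number best, which is a hint from the data and not from the design. Across the other group pairs the range was -0.1 to 0.07, with 2 of 12. As the labels do not say what a number marks and not every correlation was over 0.1, the main fit did not use the numbers as pairs. The replicate block, an alternative, ties arrays of 1 number together across all 4 groups. It thus joins shunt with sham arrays, which the labels do not call pairs. With the replicate block, 2 members passed in the left atrium (Kcna5 lower, adjusted p = 0.0371, Kcne1 higher, adjusted p = 0.0152), Kcne1 passed between shunt atria (0.4, adjusted p = 0.00524), Kcnk3 1387441_at between sham atria and Kcnj8 in the right atrium no longer passed (adjusted p = 0.0587 and 0.0702), and 3 probe sets of the array passed for the difference of effects.

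For the right atrium, array weights gave 2352 calls (1379 higher, 973 lower) and 4 members (Kcna5, Kcnj3 1388292_at, Kcnj5 1368560_at and Kcnj2, all lower), a setting in which Kcne1 also passed between shunt atria (0.47, adjusted p = 0.0244). The fit of right arrays alone gave 1415 (886 higher, 529 lower) and 2 members, and leaving out dim probe sets 2 members. For the left atrium the calls were 453 without dim probe sets, 485 with a variance trend, 370 with array weights and 13 in the fit of left arrays alone. There 1 member passed without dim probe sets, with the trend, with the mean of a gene's probe sets and with 1 probe set per gene. The difference of effects had 19, 15, 15 and 4 calls without dim probe sets, with the trend, with array weights and with array medians subtracted. Per gene, the mean of probe sets gave 6249 chamber calls after shunt and 5804 after sham, and 1 probe set per gene gave 6097 after shunt and 5621 after sham, since fewer features are tested. Of 8 genes, 3 passed after shunt with 1 probe set per gene, and after sham 4 with the mean and 3 with 1 probe set.

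Leaving out each array in turn gave 148 (without right shunt replicate 2) to 1631 (without left shunt replicate 3) calls in the right atrium with 1 to 2 members, and 77 (without left sham replicate 3) to 554 (without left shunt replicate 3) in the left with 0 to 1. The difference of effects had 0 to 21 calls with 0 members. Chamber calls were 8913 to 11578 with 5 to 7 members after shunt, and 9016 to 12309 with 4 to 7 members after sham. The members lost after sham were near the threshold: Kcnk3 1387441_at, Kcnj2 and Kcnj3 1388292_at.

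Several differences near 0, none past the test, changed sign. Quantile normalization again gave 0.03 for Kcnh2 in the left atrium, 0.04 for Kcnj5 1387248_at and 0.07 for Kcnq1 in the difference of effects, 0 for Kcna5, -0.02 for Kcnq1 and 0.01 for Kcne1 between sham atria, and 0.05 for Kcnq1 between shunt atria. Subtracting medians gave -0.01 for Kcnh2 in the difference of effects, 0.01 for Kcne1 between sham atria and 0 for Kcnj5 1368560_at between shunt atria. Array weights gave 0.06 for Kcnj5 1387248_at in the difference of effects, -0.02 for Kcna5 and 0.03 for Kcne1 between sham atria, and 0.01 for Kcnq1 between shunt atria. The mean of probe sets gave 0.09 for Kcnj3 and -0.02 for Kcnj5 in the difference of effects and 0.06 for Kcnj3 between shunt atria, and 0.45 for Kcnj5 between sham atria, which passed (adjusted p = 0.0165). With right shunt replicate 1 alone, Kcnk3 1398313_a_at was 0.04 and Kcnh2 0.14 in the right atrium, Kcnj5 1368560_at -0.07 and Kcnh2 -0.15 in the difference of effects, and Kcnj5 1368560_at -0.11 between shunt atria.

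Leaving out arrays gave these ranges for differences that changed sign. In the right atrium Kcnh2 lay at -0.19 to 0.09 and Kcnj3 1369740_at at -0.08 to 0.03, and in the left Kcnh2 at -0.05 to 0.04 and Kcnk3 1387441_at at -0.15 to 0. In the difference of effects the ranges were -0.1 to 0.19 for Kcnh2, -0.05 to 0.06 for Kcnq1, -0.09 to 0.15 for Kcnj5 1368560_at, -0.23 to 0.12 for Kcnj5 1387248_at, -0.27 to 0.05 for Kcnk3 1398313_a_at and -0.06 to 0.19 for Kcnk3 1387441_at. Between sham atria they were -0.14 to 0.12 for Kcna5, -0.09 to 0.13 for Kcne1, -0.09 to 0.04 for Kcnj5 1368560_at and -0.06 to 0.05 for Kcnq1, and between shunt atria -0.13 to 0.12 for Kcnj5 1368560_at and -0.04 to 0.04 for Kcnq1. The cause of these changes was not tested. With 3 arrays per group, the number of arrays limits the precision, and Kcnj2 and Kcne1 were dim.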

Other observations

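The genes whose log2 values followed each channel gene most closely were taken as the 3 with the highest Pearson correlation across the 12 arrays, of 14209 candidate genes. The arrays share chamber and operation, so these are descriptions without a test. For Kcna5 they were Klhl33 (r = 0.916), Bex4 (r = 0.905) and Znhit2 (r = 0.905). For Kcnj3 they were Cog6 (r = 0.907), Grb2 (r = 0.903) and Dnaja1 (r = 0.902), and for Kcnj5 they were Muc13 (r = 0.931), Dnajb6 (r = 0.892) and Zfp275 (r = 0.882). Kcnk3 was followed by Capn10 (r = 0.939), Mgat5b (r = 0.936) and Ttf2 (r = 0.931), and Kcnj2 by Mdk (r = 0.978), Dhx37 (r = 0.942) and Tmem109 (r = 0.941). Kcnq1 was followed by Ulk1 (r = 0.912), Pacc1 (r = 0.911) and Glyatl2 (r = 0.896), Kcnh2 by Fxr2 (r = 0.974), Sgsm2 (r = 0.972) and Mtch1 (r = 0.971), and Kcne1 by Spp1 (r = 0.917), Thbs4 (r = 0.913) and Unc13d (r = 0.905). Thbs4, which encodes a matrix protein, differed between shunt and sham arrays by 2.81 in the left and 1.34 in the right atrium on the log2 scale.

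Neuronal markers averaged 4.38 to 4.98 in left shunt arrays, against 4.14 to 4.22 in left sham arrays, with 2 of 10 higher.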
